A study of Mus musculus with 146 samples.

Results

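The genes described here are the splicing factor genes of 4 named families in single oocytes of the newborn mouse ovary. A gene was a member if its whole symbol was Srsf, Sf3a or Sf3b and digits, or Hnrnp or Snrp and lower-case letters or digits. Snrpn was left out. This rule, which used no measured value, found 51 genes among the 52605 gene symbols of the files, of which 19519 are annotated as protein coding. There were 11 genes of SR proteins, 20 of hnRNP proteins, 11 of snRNP proteins and 9 of SF3 subunits. The study collected 146 single germ cells by enzyme digestion and hand picking from the ovaries of untreated newborn C57/BL6J females (age label D0.5), and sequenced each by Smart-seq2, a full-length method that reads polyadenylated RNA and does not record the strand. All cells came from 5 ovaries of pups of 1 litter, and nothing ties a cell to its pup, so the cells were treated as 1 sample and no test between groups of cells was made. Oocytes of a newborn ovary are not in step, since some are still joined to their sisters while others are already enclosed by pregranulosa cells.

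Before an intron is removed, the U1 small nuclear ribonucleoprotein (snRNP) binds its 5′ splice site and U2 snRNP its branch point, and they join with U4, U5 and U6 into the spliceosome. Apart from U6, each of these snRNPs is built on a ring of Sm proteins, and the SF3A and SF3B complexes hold U2 snRNP at the branch point. SR proteins bind mainly in exons and as a rule favour their inclusion, whereas many hnRNP proteins coat the nascent transcript and favour exon skipping. Oocytes arrested in prophase of meiosis make and store the RNA that later supports growth and the first embryonic divisions, so processing of RNA is active in these cells.

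One library had a Ddx4 level of 0 and was left out. Ddx4 encodes a germ cell helicase, and all other cells were used. Estimated reads per cell ranged from 4074810 to 26855273, with a median of 9498860. The summed level of 5 germ cell markers was between 744 and 9971 TPM, the level of transcripts per length scaled to the same total in every library, in every cell used. The 9 pregranulosa markers summed to a median of 0.543 TPM with a highest cell at 82.1, and the 7 stroma markers to a median of 0.896 with a highest cell at 873. Foxl2, which defines granulosa cells, had a median of 0, but the study had screened out libraries with Foxl2 by quantitative PCR before sequencing. In contrast, globin transcripts were found above 10000 TPM in 11 cells, and library S126 of cluster 1 stood apart with 324516 TPM. The cells were clustered again on 20 marker genes, none of which is a member. They are the 19 genes that the text of the study names as markers, and Taf4b, which that text names as a regulator of this stage. Without Taf4b, an alternative added after the data were seen, the clusters held 19, 87 and 39 cells. With all 20 genes clusters 1, 2 and 3 held 19, 95 and 31 cells, and these are used below. In cluster 2, libraries S046/S141, S058/S142, S062/S143, S063/S144, S123/S145 and S124/S146 were closely alike within each pair. Their shares of spike-in and mitochondrial reads and their Ddx4 levels were near each other, as for S063 and S144 with 198 and 191 TPM of Ddx4. Whether each pair comes from 1 cell was not tested. Each library is counted as a cell below, so cluster 2 may hold fewer distinct cells than 95. Mean Sycp2, a gene of the meiotic chromosome axis, was 495, 165 and 62.3 TPM in clusters 1, 2 and 3. Mean Zp3, a gene of the egg coat, was 0.0943, 18.6 and 580 TPM in the same order. Both genes are among the 20 that drew the clusters, and Sycp2 also helped to set their order. These means therefore describe the clusters and are no separate evidence of what the clusters are. The clusters are called by number, since they need not hold the same cells as those of the study.

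Together the 51 genes took a median of 1.58% of the TPM of nuclear coding genes per cell, and the lowest and highest cells held 1.06% and 2.37%. The hnRNP genes made up 49.4% of the summed level, the SR genes 24.1%, the snRNP genes 18.9% and the SF3 genes 7.52%. Every gene of the list had a mean above 1 TPM, 28 had a mean of at least 100 TPM, and 5 had a mean below 20 TPM. As many as 37 of the 51 were found at 1 TPM or more in at least 95% of the cells, and 12 in every cell used. The 45 members with a mean of at least 30 TPM had a median coefficient of variation over cells of 0.650, and all coding genes past that level had 0.903. Beyond that limit the sets were not matched by level, and detection was not counted over other coding genes. Neither value is therefore shown to be particular to these families. Srsf5 had the lowest coefficient of all members (0.414) and Srsf12 the highest (1.94).

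**Figure D1:**
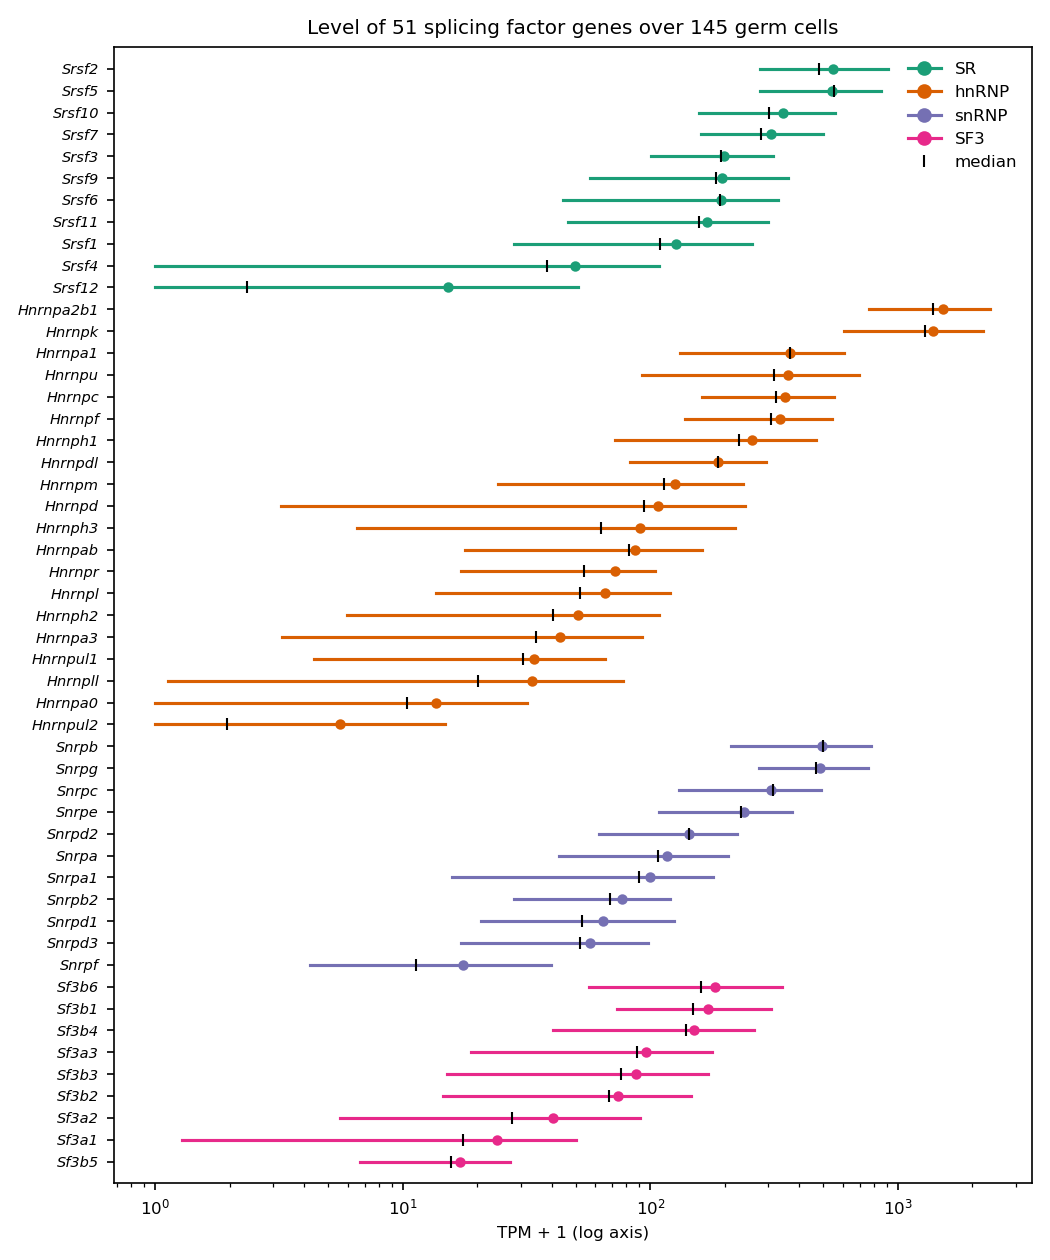
Level of each of the 51 genes over the cells used, as TPM + 1 on a log axis, ordered by mean within the family. Points are means, short black bars are medians and coloured lines run from the 10th to the 90th percentile of cells. Hnrnpa2b1 and Hnrnpk stand above the rest, and Srsf4, Srsf12, Hnrnpa0 and Hnrnpul2 have lines that reach 0 TPM.

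Among the hnRNP genes, Hnrnpa2b1 and Hnrnpk were far above the others and held 53.1% of the family's summed level. Hnrnpa2b1 (chr6:51460932-51469894, minus strand, mm10), whose product binds RNA in the nucleus and helps its transport, had a mean of 1521 ± 710 TPM (SD over cells). It was the 26th highest of all coding genes, and its lowest cell still had 429 TPM. Hnrnpk (chr13:58391142-58403343, minus strand), which encodes a protein that binds C-rich RNA through KH domains, had a mean of 1389 ± 686 TPM with a lowest cell at 229 TPM. The next was Hnrnpa1, a close relative of Hnrnpa2b1, with 367 ± 181 TPM. In every cell used Hnrnpa1 lay below Hnrnpa2b1, and the ratio of their TPM, with 1 TPM added to both, had a median of 0.249. The other 17 hnRNP genes had means from 4.55 TPM (Hnrnpul2) to 359 TPM (Hnrnpu).

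The SR genes were more even. Srsf2 had a mean of 547 ± 297 TPM, Srsf5 had 539 ± 223 TPM and Srsf10, whose product represses splicing when it loses its phosphate groups, had 342 ± 187 TPM. Srsf2 and Srsf5 were below 1 TPM in 1 cell each and Srsf10 in none. Srsf12, a relative of Srsf10, was the exception with a mean of 14.3 TPM, a median of 1.35 TPM and a level of 1 TPM or more in only 73 cells.

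The genes of the Sm ring did not have equal levels, although the ring holds 1 copy of each protein. Snrpb, the gene of SmB, was the highest with 494 ± 234 TPM and Snrpf the lowest with 16.5 ± 17.3 TPM, a 30.0-fold difference of means. On CPM, reads scaled to the same total but not divided by length, the same pair stood at the ends of the ring and differed 44.8-fold. Snrpg came next to Snrpb with 484 ± 204 TPM, but its TPM rested on few bases. The effective length implied by its reads, explained further on, was 192 bases, against 933 bases for Snrpb. Outside the ring the highest was Snrpc, which encodes a U1 protein that meets the 5′ splice site, with 307 ± 150 TPM. The other snRNP genes had means between 55.9 and 239 TPM.

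In the SF3 family Sf3b6, whose product touches the branch point adenosine, had a mean of 182 ± 120 TPM. Sf3b1, the large scaffold that wraps the branch helix, had 170 ± 95.9 TPM and was at 24.5 TPM or more in every cell. Sf3b4 followed with 149 ± 92.5 TPM. The 6 SF3B genes of the list ranged over 11.4-fold from Sf3b5 (15.97 TPM) to Sf3b6, and those of SF3A over 4.10-fold from Sf3a1 (23.1 TPM) to Sf3a3 (94.8 TPM). On CPM other genes stood at some of these ends, since SF3B ranged over 9.10-fold from Sf3b5 to Sf3b1 and SF3A over 4.58-fold from Sf3a2 to Sf3a3. Phf5a, a further SF3B subunit that is outside the list by its name, had a mean of 246 TPM. Sf3b5, annotated with 1 transcript of 3841 bases, was low but had no cell below 1.76 TPM.

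The next question was whether these genes differ along the order of the clusters. A difference is given as the log2 ratio of mean TPM between 2 clusters, with 1 TPM added to both means, and it is called past 1.5-fold at 0.585 or more in either direction. Since cells are not replicates, the range of the ratio when each cell is left out in turn is given for the genes past this limit, or the value without the 1 cell that ends the call. The summed level of the 51 genes per cell averaged 12496 ± 2188 TPM over cluster 1, 11201 ± 1806 TPM over cluster 2 and 9828 ± 1638 TPM over cluster 3 (SD over cells). The clusters overlapped, with cluster 1 from 8387 to 16546 TPM and cluster 3 from 5898 to 12454 TPM. The low end of cluster 1 was library S126, which stood apart in globin, and the 10th percentile of cluster 1 was 10079.5 TPM. Signs of library quality also moved with the clusters. The mitochondrial share of reads had medians of 5.22%, 6.21% and 7.22% and highest cells of 8.69%, 24.3% and 25.8% in clusters 1, 2 and 3, and the coding genes at 1 TPM or more had medians of 7239, 6953 and 8151. The stroma markers summed to medians of 4.35, 0.698 and 0.371 TPM, the pregranulosa markers to 0.472, 0.464 and 0.889 TPM, and the 8 markers of blood and endothelium, globin included, to 34.9, 71.2 and 30.3 TPM. Their part in the differences was not tested.

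From cluster 1 to cluster 3 the median log2 ratio of the members was -0.19, which was also the median of the 11589 coding genes with a mean of at least 1 TPM. The members' median lay above that of coding genes by 0.12 with clusters drawn from the 2000 most variable genes, by 0.13 with 3 equal groups along the first component and with all cells, and by 0.085 on CPM, where it was 0.065. By contrast it lay 0.046 below that of coding genes with means of logs. With no filter on low genes it lay 0.19 below, but there the members' own median was unchanged and that of 19519 coding genes was 0. The added genes have means below 1 TPM, and the 1 TPM added to both means draws their ratios toward 0. That gap is therefore no result about the members. Of the 51 genes, 13 were past 1.5-fold lower and 7 past 1.5-fold higher in cluster 3, which is 25.5% and 13.7%. Among all coding genes 36.6% were lower and 26.8% higher by the same rule. Among coding genes with a mean of at least 30 TPM these shares were 37.1% and 21.1%, and among the 45 members past that level they were 24.4% and 11.1%. Without the 11 cells rich in globin, a choice made after the data were seen, 13 members were lower and 4 higher, against 37.5% and 26.1% of coding genes. With clusters drawn from the 2000 most variable genes, 11 were lower and 4 higher, against 34.3% and 21.2%. Those clusters held 66, 39 and 40 cells. Their first cluster was thus far larger than cluster 1, and the contrast is not between the same groups of cells. On CPM 10 were lower and 10 higher, against 32.1% and 32.04%. With the difference of mean log2(TPM + 1) in place of the ratio, 13 were lower and 9 higher, against 28.6% and 30.0%. Between clusters 1 and 2, 6 members were lower and 2 higher, against 21.1% and 25.2% of coding genes. Between clusters 2 and 3, 10 were lower and 2 higher, against 31.6% and 16.3%.

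TPM gives a share of the RNA in a cell, and the scale decided the sign of many of these ratios. Spike-in RNA took a median of 0.345% of the reads in cluster 1, 0.443% in cluster 2 and 0.252% in cluster 3. With each cell scaled to its spike-ins, the median log2 ratio of all coding genes between clusters 3 and 1 moved from -0.19 to 0.48, that of the members moved to 0.48 as well, and 3 members were lower and 24 higher, against 18.8% and 46.9% of coding genes on that scale. The 3 were Hnrnph3, Hnrnpll and Sf3b2. Directions below are therefore shares of the RNA, and where it matters they are also given relative to the median coding gene.

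The 4 families differed in their ratios. The median log2 ratio between clusters 3 and 1 was -0.20 for SR genes, -0.30 for hnRNP genes, 0.37 for snRNP genes and -0.48 for SF3 genes. The summed level of the hnRNP genes had a log2 ratio of -0.59, from 6877 ± 1917 TPM in cluster 1 to 4562 ± 1025 TPM in cluster 3. The SF3 sum had -0.56, from 986 ± 234 to 670 ± 172 TPM. The snRNP sum had 0.26, from 1789 ± 496 to 2141 ± 550 TPM, and the SR sum had -0.21. With spike-in scaling all 4 sums were higher in cluster 3, and with CPM the SR sum had 0.03. Relative to the median coding gene the sides were the same on TPM, CPM, spike-in scaling and TPM of coding genes alone, except for the SR sum, which lay close to it. Spike-in and coding-gene scaling multiply all genes of a cell by 1 factor, so their agreement with TPM here was largely built in. The family sums were not computed with other clusters or without the cells rich in globin. On those 4 scales the snRNP sum lay 0.43 to 0.60 above it, the hnRNP sum 0.32 to 0.41 below it, the SF3 sum 0.26 to 0.38 below it, and the SR sum between -0.02 and 0.05 from it. The hnRNP sum was the lowest on 3 of the 4 scales and the SF3 sum on CPM. Much of the hnRNP sum is Hnrnpk, whose mean was 2098 TPM in cluster 1 against 933 TPM in cluster 3, and Hnrnpa2b1, with 1918 against 1200.3 TPM. The median hnRNP gene lay 0.11 to 0.16 below the median coding gene on those scales, the median SF3 gene 0.16 to 0.30 below it and the median snRNP gene 0.53 to 0.67 above it. In all 4 families the cells of clusters 1 and 3 overlapped.

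**Figure D2:**
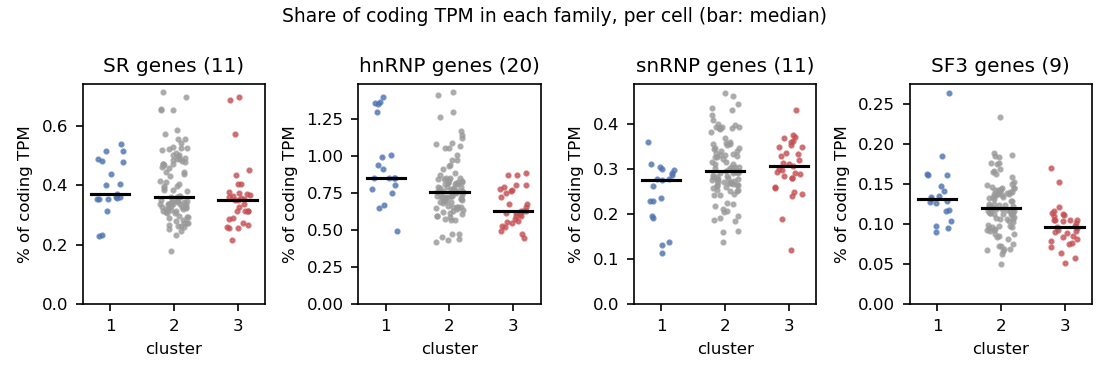
Share of the TPM of nuclear coding genes held by each family, in percent, for each cell of clusters 1 (19 cells), 2 (95 cells) and 3 (31 cells); bars are medians. The hnRNP medians are 0.853%, 0.758% and 0.626% and the SF3 medians 0.131%, 0.120% and 0.0961%, while the snRNP medians are 0.275%, 0.295% and 0.308%, and cells of all clusters overlap.

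Of the 51 genes Hnrnpk had the largest difference of mean TPM between clusters 1 and 3. Its level was 1045, 1972 and 4397 TPM (lowest, median and highest cell) in cluster 1, 229, 1353 and 3097 TPM in cluster 2 and 469, 934 and 1603 TPM in cluster 3. The log2 ratio between clusters 3 and 1 was -1.17, from -1.21 to -1.08 with each cell left out. All 31 cells of cluster 3 lay below the median of cluster 1, and all 19 cells of cluster 1 above the median of cluster 3. Hnrnpa2b1, the other abundant gene, had 749, 1850 and 3484 TPM in cluster 1 and 604, 1105 and 2066 TPM in cluster 3. Its ratio was -0.68 (-0.72 to -0.61 with each cell left out), and 29 of 31 cells of cluster 3 lay below the median of cluster 1. With spike-in scaling Hnrnpk had -0.44, short of 1.5-fold, and Hnrnpa2b1 had 0.12, so that the sign of the latter depended on the scale. On that scale they lay 0.92 and 0.36 below the median coding gene. With clusters drawn from the 2000 most variable genes Hnrnpk had -0.75 and Hnrnpa2b1 had -0.47, the latter short of 1.5-fold.

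The steepest ratios of the list were those of Hnrnph3 and Hnrnpll, which were less abundant hnRNP genes. Hnrnph3, of the hnRNP F/H group that binds G-rich RNA, had medians of 192, 62.1 and 45.99 TPM in clusters 1, 2 and 3 and a log2 ratio of -1.95 between clusters 3 and 1. Its cells in cluster 1 spanned 0.0801 to 345 TPM and those in cluster 3 spanned 0 to 136.03 TPM, with all 31 of the latter below the median of cluster 1. Hnrnpll, known for the switch of CD45 exons in lymphocytes, had a ratio of -1.84, with medians of 31.8 and 8.75 TPM in clusters 1 and 3. Hnrnpu, a scaffold protein of the nuclear matrix, had -1.06, and 29 of 31 cells of cluster 3 were below the median of cluster 1. It was short of 1.5-fold on CPM (-0.48) and with spike-in scaling (-0.37), where it lay 0.85 below the median coding gene. With each cell left out the ratios ran from -2.05 to -1.87 for Hnrnph3, from -1.999 to -1.64 for Hnrnpll and from -1.16 to -0.93 for Hnrnpu. On CPM Hnrnpll had -1.10. Hnrnph2 had -0.78, but without library S026 of cluster 1 its ratio was -0.50, short of 1.5-fold, and with spike-in scaling it was 0.0805, or 0.40 below the median coding gene. On CPM it was -0.40. Exons of Hnrnpk, Hnrnph3 and Hnrnpu overlap those of Rmi1, Rufy2 and Cox20 on the opposite strand, with mean levels of 34.5, 5.74 and 38.9 TPM, and reads of such a pair cannot be told apart where they overlap.

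The ratio of Hnrnpd had the opposite sign. It encodes AUF1, which binds AU-rich elements, and had medians of 75.9, 72.1 and 152 TPM, so the step fell between clusters 2 and 3. Its lowest and highest cells were 0 and 219 TPM in cluster 1 and 7.08 and 386 TPM in cluster 3. The log2 ratio between clusters 3 and 1 was 1.25 (1.18 to 1.40 with each cell left out), and 28 of 31 cells of cluster 3 were above the median of cluster 1. Hnrnpdl, its closest relative in the list, had a ratio of 0.04. Hnrnpa1 had 0.61 and Hnrnpa0 had 0.68. Both were near the limit, and without library S103 of cluster 1 or S025 of cluster 3 they had 0.54 and 0.56. Both also fell to 0.54 without the 11 cells rich in globin, and with clusters drawn from the 2000 most variable genes Hnrnpa1 had 0.18. With Taf4b left out of the clustering it had 0.57. The ratio of Hnrnpa1 to Hnrnpa2b1 per cell, a pair chosen after their values were seen, had medians of 0.125, 0.262 and 0.315 in clusters 1, 2 and 3. The highest cell of cluster 1 was at 0.325 and the highest of cluster 3 at 0.762, and the clusters overlapped.

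**Figure D3:**
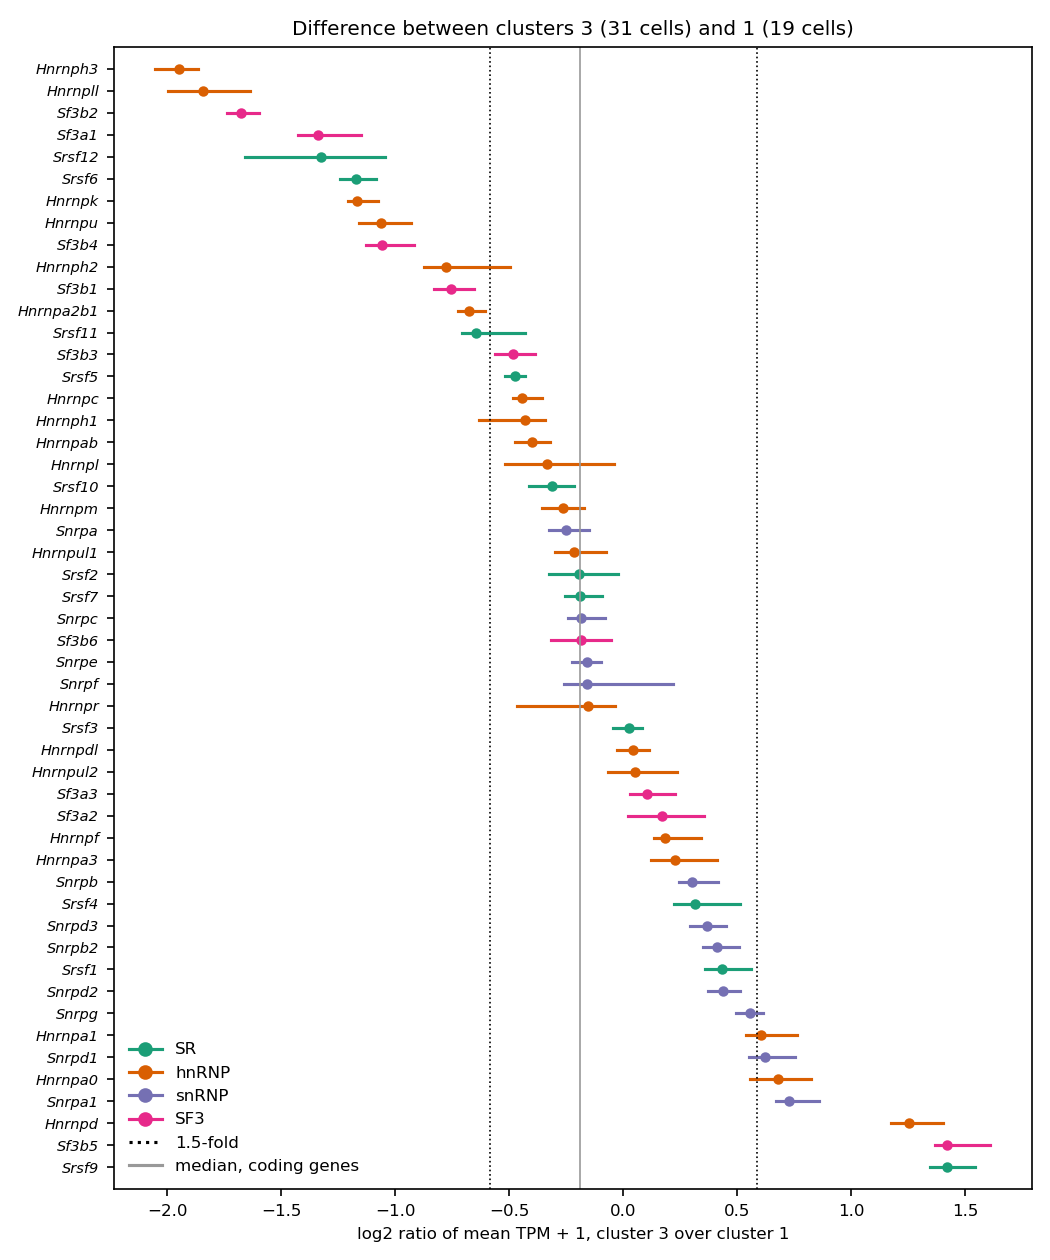
Log2 ratio of mean TPM + 1 between clusters 3 and 1 for each of the 51 genes. Points are the ratios, lines the range with each cell left out in turn, dotted lines mark 1.5-fold and the grey line the median coding gene at -0.19. No snRNP gene passes the left dotted line, and Srsf9, Sf3b5 and Hnrnpd stand apart on the right with ratios of 1.42, 1.42 and 1.25.

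Of the SR genes, Srsf9 and Srsf6 had ratios of opposite sign. Srsf6 (SRp55) had 143.6, 297 and 629 TPM (lowest, median and highest cell) in cluster 1, 0, 199 and 444 TPM in cluster 2 and 6.03, 116.7 and 325 TPM in cluster 3. Srsf9 (SRp30c), an SR protein with a short RS domain, had 0.174, 91.99 and 234 TPM in cluster 1, 1.45, 175 and 717 TPM in cluster 2 and 1.98, 255 and 462 TPM in cluster 3. The log2 ratios between clusters 3 and 1 were -1.17 for Srsf6 and 1.42 for Srsf9, and with each cell left out they ran from -1.24 to -1.08 and from 1.35 to 1.55. With spike-in scaling Srsf6 had -0.37, short of 1.5-fold and 0.85 below the median coding gene. With clusters drawn from the 2000 most variable genes they had -0.705 and 0.70. No cell of cluster 1 was above the median Srsf9 level of cluster 3, and none was below the median Srsf6 level of cluster 3. On TPM, Srsf9 exceeded Srsf6 in 1 of 19 cells of cluster 1, 49 of 95 of cluster 2 (pairs of like libraries counted separately) and 27 of 31 of cluster 3. This pair was also chosen after the values were seen. On CPM, which does not divide by length, it did so in 0 of 19, 15 of 95 and 5 of 31 cells. A common scale factor of a cell leaves these counts as they are.

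The other SR genes past the limit were lower in cluster 3. Srsf12 had -1.33 (-1.66 to -1.05 with each cell left out), with medians of 7.10, 0.494 and 0.121 TPM, most cells of cluster 3 being close to 0. It had -0.28 with spike-in scaling, short of 1.5-fold and 0.75 below the median coding gene, -0.88 on CPM and -2.04 with the clusters from variable genes. Srsf11 had -0.65, which became -0.43 without library S106 of cluster 1 and 0.25 with spike-in scaling, or 0.22 below the median coding gene. It was -0.51 with Taf4b left out of the clustering, -0.39 on CPM and -0.43 with the clusters from variable genes. Among the 7 SR genes short of 1.5-fold the ratios ran from -0.47 for Srsf5 to 0.43 for Srsf1. Srsf2 and Srsf3, both essential SR genes in mice, had -0.20 and 0.03.

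**Figure D4:**
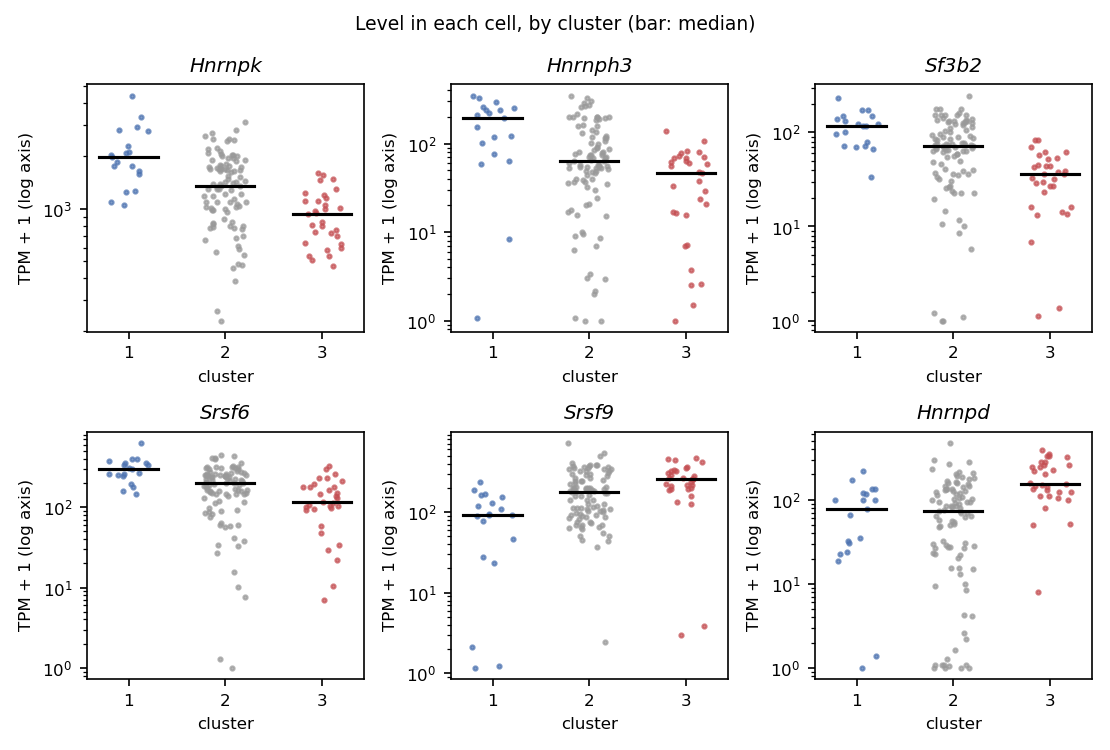
TPM + 1 on a log axis in each cell of clusters 1, 2 and 3 for 6 genes; bars are medians. For Hnrnpk, Hnrnph3, Sf3b2 and Srsf6 the medians step down from cluster 1 to 3, for Srsf9 they step up (91.99, 175 and 255 TPM), and for Hnrnpd the step is between clusters 2 and 3.

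No gene of the snRNP family was past 1.5-fold lower. Snrpa1, which encodes a protein of U2 snRNP, had a ratio of 0.73 (0.67 to 0.86 with each cell left out) with medians of 56.01, 84.6 and 113.7 TPM, and 27 of 31 cells of cluster 3 were above the median of cluster 1. With clusters drawn from the 2000 most variable genes it had 0.395, short of 1.5-fold. Snrpd1, the gene of SmD1, had 0.62, or 0.55 without library S100 of cluster 1, 0.45 without the 11 cells rich in globin and 0.54 with those clusters, and Snrpg had 0.56, just short of the limit. The summed level of the 7 genes of the Sm ring was 1273, 1503 and 1609 TPM on average in clusters 1, 2 and 3. Within the ring Snrpe and Snrpf had -0.16 each, and the other 5 were between 0.30 and 0.62. On CPM Snrpe had 0.065 and Snrpf 0.11, and on TPM both lay 0.03 above the median coding gene. With each cell left out the ratio of Snrpf ran from -0.26 to 0.22. The sign of both thus depended on the scale, and that of Snrpf also on 1 cell. Snrpa and Snrpc, which encode U1 proteins, had -0.25 and -0.19, whereas Snrpb2 and Snrpa1, which encode U2 proteins, had 0.41 and 0.73. Of these only Snrpa1 was past 1.5-fold. The SF3 genes, whose products hold U2 snRNP at the branch point, ran from -1.68 (Sf3b2) to 1.42 (Sf3b5).

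The SF3 genes lay on both sides of the limit. Sf3b2, whose product contacts the pre-mRNA next to the branch point, had 32.99, 115.8 and 229 TPM (lowest, median and highest cell) in cluster 1, 0, 70.1 and 244 TPM in cluster 2 and 0.129, 35.2 and 82.3 TPM in cluster 3. Its log2 ratio between clusters 3 and 1 was -1.68, and all 31 cells of cluster 3 were below the median of cluster 1. Sf3a1 had -1.34, with medians of 25.7 and 11.9 TPM in clusters 1 and 3, and -0.52 with spike-in scaling. Sf3b4 had -1.06 and Sf3b1 had -0.75, and with spike-in scaling these became -0.11 and -0.01, or 0.59 and 0.49 below the median coding gene. On CPM Sf3b1 had -0.19. With each cell left out the ratios ran from -1.74 to -1.60 for Sf3b2, from -1.43 to -1.15 for Sf3a1, from -1.13 to -0.92 for Sf3b4 and from -0.83 to -0.65 for Sf3b1. On the other side, Sf3b5, the smallest subunit of SF3B, had 1.76, 4.86 and 23.3 TPM in cluster 1, 2.37, 14.8 and 53.9 TPM in cluster 2 and 11.1, 18.1 and 36.05 TPM in cluster 3. Its ratio was 1.42 (1.37 to 1.61 with each cell left out), all 31 cells of cluster 3 were above the median of cluster 1, and 1 of 19 cells of cluster 1 was above the median of cluster 3. Most of that difference lay between clusters 1 and 2 (1.24), and it fell to 0.583 between clusters 3 and 1 when the 2000 most variable genes drew the clusters, short of the limit, as were those of Sf3a1 (-0.56) and Sf3b1 (-0.49). Sf3b3, Sf3b6, Sf3a3 and Sf3a2 had ratios between -0.48 and 0.17.

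Salmon gives both reads and TPM for a gene. Their quotient, in units fixed by the spike-ins of the same cell, is the effective length of the transcripts read, weighted by their levels. It does not use the level itself and can differ with the mix of transcripts. It also varied over cells for genes annotated with 1 transcript, as for Hnrnpa0 (10th and 90th percentiles of cells 1886 and 2055 bases). Whether a difference comes from the mix was not tested. The implied length was computed for 49 members with at least 10 cells in clusters 1 and 3 at 5 TPM and 20 reads or more. The median length differed at least 1.25-fold between clusters 3 and 1 for 6 members (12.2%), against 18.3% of 5751 coding genes. It was shorter in cluster 3 for Hnrnpm, Srsf1 and Hnrnpr, and longer for Hnrnpl, Sf3a2 and Srsf12. Exons of Sf3a2 overlap those of Plekhj1 on the opposite strand, which had a mean of 127.6 TPM, and exons of Hnrnpm overlap those of March2 on the same strand, with 38.5 TPM.

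Hnrnpm, which encodes a regulator of exon skipping, is annotated with 15 transcripts from 380 to 3934 bases. Its implied length varied widely between cells, with no gap between longer and shorter values, and the medians were 2087, 2093 and 1387 bases in clusters 1, 2 and 3. A limit of 1500 bases was set after the values were seen. Under it lay 5 of 19 cells of cluster 1, 22 of 86 of cluster 2 (pairs of like libraries counted separately) and 18 of 30 of cluster 3. The ratio of the level of Hnrnpm was -0.26 on TPM and -0.64 on CPM. Srsf12 is annotated with 2 transcripts of 829 and 2939 bases, and 7 of 11, 21 of 40 and 4 of 11 cells of clusters 1, 2 and 3 lay under 1500 bases. Hnrnpl, the relative of Hnrnpll, had medians of 827, 1098 and 1092 bases, with the middle 80% of cells between 613 and 1113 bases in cluster 1 and between 708 and 1580 bases in cluster 3. The ranges overlapped for every one of these genes.

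**Figure D5:**
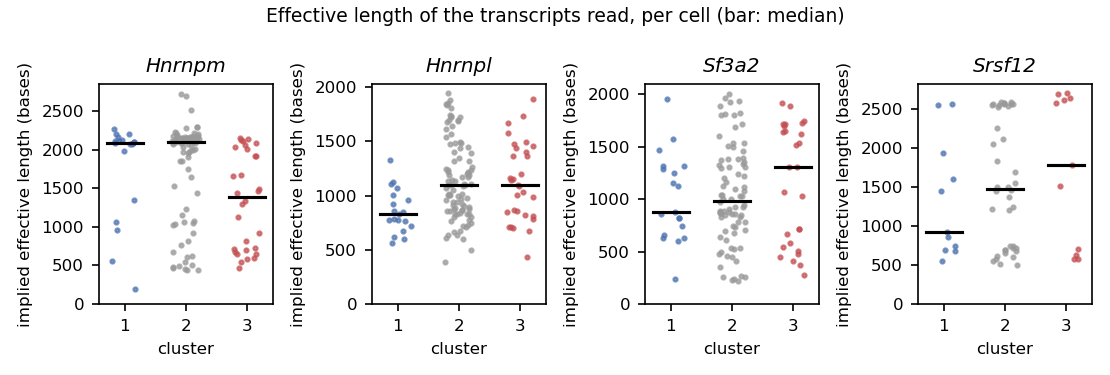
Implied effective length in bases in each cell of clusters 1, 2 and 3 for 4 genes; bars are medians. For Hnrnpm 18 of 30 cells of cluster 3 lie under 1500 bases against 5 of 19 of cluster 1, and for Srsf12 few cells had enough reads (11, 40 and 11).

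Promoter sequences were found for 45 of the 51 genes among RefSeq starts (GRCm38.p6), and the 250 bases before the start were searched on both strands for short motifs. The letters CCGGAAG, which ETS factors bind, were found in 15 of 45 members (33.3%), in 9.71% of 15120 coding genes and in 19.9% of the 3572 coding genes with a mean of at least 30 TPM. GGGCGG, bound by SP factors, was found in 71.1%, 46.2% and 62.2% of the same sets, and CCAAT, bound by NF-Y, in 44.4%, 35.9% and 38.5%. CCGGAAG was found in 6 of the 7 SF3 genes with a sequence, namely Sf3a1, Sf3a2, Sf3a3, Sf3b2, Sf3b3 and Sf3b6, and in genes that were lower (Sf3b2) and higher (Hnrnpd) in cluster 3. The median GC content of the members' windows was 60.8%, against 56.4% in coding genes and 60% in those with a mean of at least 30 TPM. The 150 bases before the start are printed for 3 genes that were lower in cluster 3 and 2 that were higher. All 5 stretches lie outside the annotated gene, run 5′ to 3′ along the gene, and have the ETS, SP and CCAAT letters, or their reverse complements, in capitals.
Srsf6 (chr2:162931358-162931507, plus strand): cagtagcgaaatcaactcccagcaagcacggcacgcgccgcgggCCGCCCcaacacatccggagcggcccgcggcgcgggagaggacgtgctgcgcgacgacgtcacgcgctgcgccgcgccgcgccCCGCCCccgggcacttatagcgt
Sf3b2 (chr19:5295456-5295605, minus strand): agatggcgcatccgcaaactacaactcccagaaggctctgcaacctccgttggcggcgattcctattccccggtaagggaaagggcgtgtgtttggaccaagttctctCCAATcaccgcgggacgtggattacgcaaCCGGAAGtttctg
Hnrnpa2b1 (chr6:51469895-51470044, minus strand): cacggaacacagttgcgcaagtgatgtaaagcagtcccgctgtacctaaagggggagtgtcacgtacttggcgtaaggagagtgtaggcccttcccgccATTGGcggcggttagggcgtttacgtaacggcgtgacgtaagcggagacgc
Srsf9 (chr5:115327027-115327176, plus strand): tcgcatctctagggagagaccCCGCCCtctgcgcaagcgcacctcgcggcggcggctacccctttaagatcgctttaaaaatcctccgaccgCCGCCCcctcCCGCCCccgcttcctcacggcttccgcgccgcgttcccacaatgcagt
Hnrnpd (chr5:99978939-99979088, minus strand): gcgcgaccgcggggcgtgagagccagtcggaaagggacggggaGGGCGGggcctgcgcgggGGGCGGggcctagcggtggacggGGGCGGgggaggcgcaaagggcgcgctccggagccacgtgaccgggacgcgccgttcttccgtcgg

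Srsf6 and Srsf9, whose ratios had opposite signs, both hold the SP letters in the printed stretch, and neither holds CCGGAAG in the searched window. These matches describe the letters alone.

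The other genes of the splicing machinery were counted in the same way. A list of 125 genes that are not members was used, 3 of which were absent or too low, and of the others 44 (36.1%) were past 1.5-fold lower and 23 (18.9%) higher between clusters 3 and 1, against 36.6% and 26.8% of coding genes. One of the 23, Gemin4, was lower on CPM, and with that direction the counts are 45 and 22. Among proteins and helicases of the snRNPs, 13 of 32 were lower and 4 higher. There Dhx38, the helicase PRP16, was the lowest with 8.68 and 1.46 TPM in clusters 1 and 3, and Ddx23, a helicase of U5 snRNP, was the highest with 10.7 and 34.8 TPM. In the Prp19 complex 4 of 12 were lower and 5 higher, from Xab2 (-1.37) to Crnkl1 (1.43). Of SR kinases and SR-related proteins 3 of 14 were lower and 1 higher, namely the kinase gene Clk1 with 0.80, and Rnps1 was at -1.22. With spike-in scaling Xab2 had -0.54 and Rnps1 -0.41, short of 1.5-fold. On that scale they lay 1.01 and 0.89 below the median coding gene.

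Among other regulators of exon choice, 15 of 35 were lower and 6 higher, which is 42.9% and 17.1%. The shares of all coding genes, for this list and those below, were 36.6% and 26.8%. Mbnl3 had a ratio of -2.62, its mean being 35.9 TPM in cluster 1 and 5.01 TPM in cluster 3, and Pcbp1, an intronless relative of Hnrnpk with KH domains, had 1.90, with 82.8 and 312 TPM. In the exon junction complex Eif4a3 had -0.89 (-0.10 with spike-in scaling) and Magoh 0.65, and these were the only 2 of 5 past the limit. Among the genes that assemble snRNPs 7 of 16 were lower and 3 higher. Wdr77, a subunit of the methylosome that modifies Sm proteins, had -2.25, with means of 156 and 31.99 TPM. Gemin4 of the SMN complex had 2.30 on TPM but -0.75 on CPM, so its direction is uncertain, and with the latter the counts are 8 and 2. In the minor spliceosome, which removes a rare class of introns, 3 of 8 were higher and 1 lower, from Zrsr1 (-0.69) to Snrnp35 (1.77). Both had low means, of 2.06 and 4.12 TPM, and Zrsr1 had -0.24 on CPM, short of 1.5-fold.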

How the data were processed

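The values are those of 146 libraries of single germ cells, each with 1 table of genes. According to the study's methods, reads were checked with FastQC, and the authors mapped them with Salmon and sequence bias correction to mm10 with spike-in sequences added. The deposited tables hold TPM, estimated counts of reads and effective lengths per gene. The deposited gene lengths lie below the shortest transcript of many genes and were not used, except for spike-ins, whose effective lengths (1 transcript each) fixed the reads per TPM and base of each cell. The annotation release was not given in the sources used here. GENCODE M21 held 28006 of the symbols and RefSeq 35 more, and those in neither did not count as coding genes.

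The study's stated limits on molecules, mitochondrial share and spike-in share left all 146 cells when the first was applied to estimated reads, since these libraries do not count molecules, although its methods give a lower number without naming the cells left out, and 1 cell with a Ddx4 TPM below 1 was removed. Cells were clustered with Seurat 5.3.0 in R 4.3.3 on log-normalized TPM of 20 genes, the 19 that the study's text names as markers and Taf4b (10 components, 20 neighbours, resolution 0.2, the lowest from 0.1 upward to give 3 clusters). Ratios used mean TPM with a pseudocount of 1 and genes with a mean of at least 1 TPM. Cells have no animal label, so all are 1 sample and no p-value is given. Doublets were not called, since each cell was picked by hand. Alternatives were CPM, spike-in and coding-gene scaling, a pseudocount of 0.1, means of logs, other clusters, all cells, no filter on low genes, and leaving out shallow cells, each cell in turn, or cells rich in globin, leaving globin out of the scaling, and leaving Taf4b out of the clustering (the last 3 added after the data were seen).

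The members and lists were chosen with earlier results of these data known. Named genes were, per family, the 3 with the highest mean and every gene past 1.5-fold between clusters 3 and 1, and per pathway list the gene with the largest ratio in each direction. Other members and Phf5a are named as the ends of a range, as relatives or partners of such a gene, for their known role or for their implied length, and were chosen after their values were seen.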

Additional observations from a re-analysis of the deposited data

Results flagged for a closer look

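Signals outside the main measurement were found in 1 library and 1 gene. The library with a Ddx4 level of 0, which was not used, had a summed level of 1440 TPM over the 51 genes. That was 0.343% of its coding TPM, below the lowest of the cells used (1.06%). It had 1408459 reads, 20 of the 51 genes were at 0, and Dazl was at 0.221 TPM. Its highest member was Hnrnph3 with 282 TPM. Snrpn, an imprinted gene of the Sm family that the list leaves out, had a mean of 30.98 TPM over the cells used and was at 1 TPM or more in 74.5% of them. Its means were 18.8, 33.3 and 31.2 TPM in clusters 1, 2 and 3. Over all cells used its mean lay above that of Snrpf (16.5 TPM) and below that of Snrpd3 (55.9 TPM).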

How the results depend on the processing

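Spike-in scaling moved all genes. It moved the median log2 ratio of the members from -0.03 to -0.25 between clusters 2 and 1, from -0.08 to 0.85 between clusters 3 and 2, and from -0.19 to 0.48 between clusters 3 and 1. The medians of coding genes moved with it, to -0.14, 0.64 and 0.49 over the genes with a mean of at least 1 on that scale, so that relative to coding genes the last was -0.00799, against 0.12 with clusters from 2000 variable genes and 0.13 with 3 equal groups. It left 3 members lower and 24 higher between clusters 3 and 1, against 18.8% and 46.9% of coding genes. The ratios of Hnrnpa2b1 (0.12), Hnrnph2 (0.0805) and Srsf11 (0.25) changed sign with this shift of all genes, and on that scale they lay 0.36, 0.40 and 0.22 below the median coding gene. With CPM the median between clusters 3 and 1 was 0.065, and 10 members were lower and 10 higher, against 32.1% and 32.04% of coding genes. The count of members past 1.5-fold higher was 4 with clusters from 2000 variable genes and 4 without the 11 cells rich in globin, against 7, while the share of coding genes past it was 21.2% and 26.1%, against 26.8%. With each cell left out in turn that count ran from 5 (without library S018) to 8 and the lower count from 12 to 14. Hnrnph1 and Snrpg reached -0.63 and 0.61 at the ends of their ranges and so crossed the limit. The causes of these shifts were not tested. Of the 20 members past 1.5-fold between clusters 3 and 1, the calls of Hnrnpd, Hnrnph3, Hnrnpll, Sf3b2 and Srsf9 stayed past the limit in the same direction under all 13 alternatives other than leaving out single cells, and that of Srsf11 in 5. Among these alternatives, no filter on low genes and leaving out shallow cells could not move a member's ratio, and both count among the 5 of Srsf11. All members passed the filter, and the shallow cells left out were all in cluster 2. The median share of coding TPM was between 1.57% and 1.80% under its alternatives. No paired analysis was possible because the cells form 1 group. At the depth of these libraries a level of 0 in 1 cell does not show that the gene is silent there.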
